A study of Arabidopsis thaliana with 2 samples.

Results

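Defence-annotated genes with lower transcript levels in leaves of WRKY75RNAi plants are described here, apart from some loci set aside by name. The genes were those that the authors' deposited ontology table of lower genes placed under the term "defense response". That term held 69 loci, 13 of which were among 18 loci left out by name, and 56 remained. They are 56 of the 931 loci that the deposited tables list as lower in WRKY75RNAi, while another 1231 loci are listed as higher. The choice used the measured difference itself, so every one of the 56 is lower by construction, and the ratios given below describe them and test nothing.

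Polyadenylated RNA was sequenced from the third and the fourth leaves of 28-day-old Arabidopsis thaliana plants of the ecotype Col-0. There were 2 libraries, 1 from wild type and 1 from WRKY75RNAi plants, whose WRKY75 gene, for a WRKY-domain transcription factor, is the target of RNA interference (gene silencing through double-stranded RNA). Both genotypes share the Col-0 background and age. The promoter that drives the RNAi construct, the number of independent lines and the number of plants pooled per library were not stated in the labels. A genotype is represented by a single library, so the spread between plants is unknown and no test of genotype was possible. Each ratio of reads is given with its exact 95% interval after Clopper and Pearson, which holds counting error and nothing else. WRKY75 itself had 1699 reads in wild type and 476 reads in WRKY75RNAi (29.2 and 8.87 RPKM, read counts scaled to gene length and library total), a log2 ratio of -1.72 (interval -1.87 to -1.57). Fewer cells of one type and less RNA per cell cannot be told apart in such whole-leaf RNA. Of 10 marker genes of guard cells, phloem, flowers and seeds 0 were listed in either direction, as were 0 of 3 leaf photosynthesis genes. Among all protein-coding genes 3.10% were listed as lower and 4.18% as higher, so lists this short decide nothing on cell composition. A gene that is not listed has no value here.

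Plants detect microbes in layers. Receptor-like proteins and receptor-like kinases at the cell surface bind microbial molecules or the plant's own danger peptides, and intracellular receptors of the nucleotide-binding leucine-rich repeat (NLR) class recognise effector proteins that pathogens deliver into the cell. Many Arabidopsis NLRs begin with a TIR domain (Toll/interleukin-1 receptor-like), an enzyme module that makes nucleotide signals read by the EDS1 complexes, and a number of short proteins consist of little more than that domain. Downstream stand kinases, ubiquitin ligases, membrane fusion proteins and transcription factors, and finally antimicrobial proteins and enzymes. WRKY transcription factors bind the W-box, whose core is TTGAC, and many defence gene promoters carry it.

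The promoters that bear on this are shown first. Each line gives the 250 bases before the annotated gene start, written 5′ to 3′ on the strand of the gene, from the RefSeq annotation of the TAIR10.1 assembly. CRK11, SYP122, PROPEP3, PROPEP2 and FRK1 are shown as examples with several W-box cores. Some members not shown hold similar numbers, such as AT2G26380 with 5 before the start. The capitals mark each core, TTGAC, or GTCAA where it lies on the other strand.
CRK11 (chr4:12143859-12144108, minus strand): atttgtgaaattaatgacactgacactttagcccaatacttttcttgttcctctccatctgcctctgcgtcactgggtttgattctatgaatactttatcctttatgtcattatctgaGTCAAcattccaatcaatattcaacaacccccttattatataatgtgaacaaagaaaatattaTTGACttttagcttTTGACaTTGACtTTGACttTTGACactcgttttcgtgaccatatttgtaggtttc
SYP122 (chr3:19427231-19427480, minus strand): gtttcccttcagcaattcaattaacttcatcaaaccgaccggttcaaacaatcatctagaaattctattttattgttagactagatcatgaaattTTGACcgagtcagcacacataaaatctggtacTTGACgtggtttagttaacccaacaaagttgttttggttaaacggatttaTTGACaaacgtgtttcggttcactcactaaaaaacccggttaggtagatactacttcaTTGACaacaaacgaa
PROPEP3 (chr5:25939312-25939561, plus strand): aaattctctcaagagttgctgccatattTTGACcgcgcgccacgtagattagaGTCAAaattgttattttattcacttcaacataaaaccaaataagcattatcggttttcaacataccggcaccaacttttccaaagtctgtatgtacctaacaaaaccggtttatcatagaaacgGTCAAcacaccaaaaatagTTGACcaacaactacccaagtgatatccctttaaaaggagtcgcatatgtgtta
PROPEP2 (chr5:25934318-25934567, plus strand): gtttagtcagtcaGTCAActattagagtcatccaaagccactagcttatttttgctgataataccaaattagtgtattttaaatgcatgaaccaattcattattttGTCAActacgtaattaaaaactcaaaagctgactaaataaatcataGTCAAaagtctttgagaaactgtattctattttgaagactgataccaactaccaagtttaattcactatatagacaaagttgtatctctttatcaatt
FRK1 (chr2:8329945-8330194, minus strand): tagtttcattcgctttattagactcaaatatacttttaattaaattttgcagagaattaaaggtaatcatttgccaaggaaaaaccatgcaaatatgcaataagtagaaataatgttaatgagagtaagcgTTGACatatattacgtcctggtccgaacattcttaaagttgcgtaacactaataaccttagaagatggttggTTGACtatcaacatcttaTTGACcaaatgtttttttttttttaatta
PDF1.2b is shown as a promoter without a W-box core, and there the capitals mark a GCC box, GCCGCC, the element that factors of the ethylene response factor (ERF) family bind.
PDF1.2b (chr2:11088873-11089122, plus strand): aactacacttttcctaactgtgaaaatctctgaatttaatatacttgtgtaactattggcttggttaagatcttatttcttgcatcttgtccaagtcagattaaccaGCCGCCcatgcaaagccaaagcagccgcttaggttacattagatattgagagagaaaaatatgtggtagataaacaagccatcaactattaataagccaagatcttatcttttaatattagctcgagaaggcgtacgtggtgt

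The members ranged from barely detected to very abundant transcripts. Wild-type values lay between 0.138 RPKM (AT4G11340) and 2252 RPKM (GSTF2), with a median of 8.84 RPKM against 2.79 RPKM for all loci listed as lower. Together the 56 genes took 327895 reads in wild type and 129263 in WRKY75RNAi, or 0.793% and 0.340% of the library totals of 41328980 and 38042482 reads. GSTF2 alone supplied 34.3% of the members' wild-type reads, and with GSTF7, PLA2A and SYP122 it supplied 63.7%. Reads were present in both libraries for 53 members. Their median log2 ratio of WRKY75RNAi over wild type was -1.39, which is 38.2% of the wild-type level, and the range ran from -4.09 (PROPEP2) to -1.01 (AT2G20142). All 853 lower loci with reads in both libraries had a median of -1.48. The 16 members under 3 RPKM in wild type had a median of -2.14, the 20 between 3 and 30 RPKM -1.28, and the 17 at or above 30 RPKM -1.17. The table of lower genes was also selected by p-value, per its sheet name. Of the members under 100 wild-type reads, only TGA6 lay near a 2-fold decrease, at -1.22 on 86 and 34 reads. The others with reads in both libraries ran from -1.66 (WRKY72) to -4.09 (PROPEP2). Whether that selection shaped the trend with level was not tested. With 1 RPKM added to each value, an alternative chosen after seeing the data, the medians were -0.88, -1.18 and -1.16, so that the lowest genes had the shallowest ratios. Genes with few reads also had the widest intervals, and 9 of the 14 ratios at or below -2 belonged to genes under 3 RPKM.

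**Figure D1:**
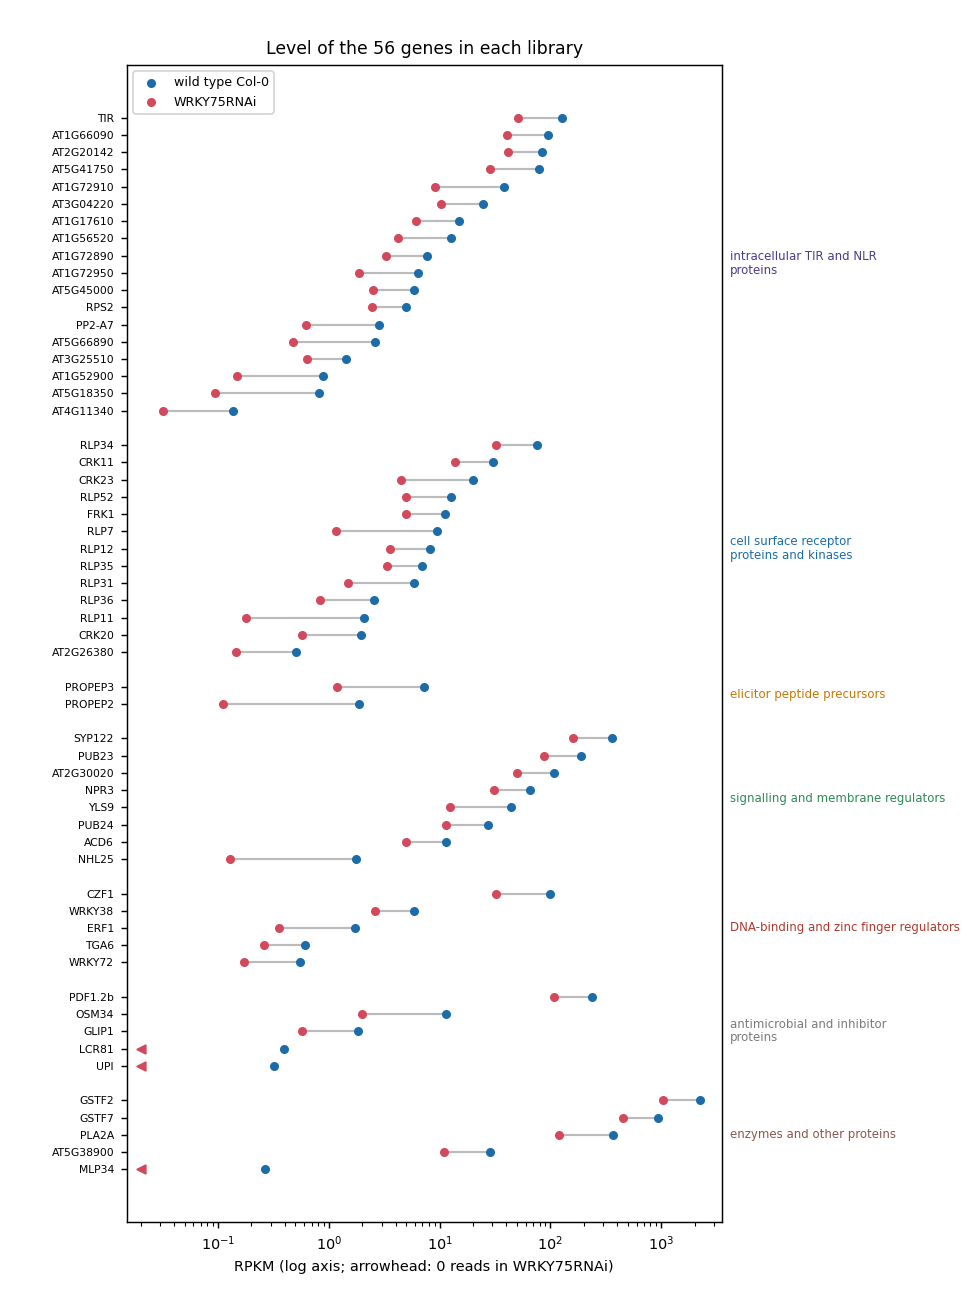
Level of each of the 56 genes in RPKM on a log axis, in wild type (blue) and in WRKY75RNAi (red), grouped by role; each point is 1 library and an arrowhead marks 0 reads. Every blue point lies to the right of its red point, since the genes were chosen for that, and the wild-type levels run from 0.138 to 2252 RPKM.

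A log2 ratio of -2 or below, which is at least a 4-fold decrease, was found in 14 of the 53 members, 26.4%, close to the 23.4% of all lower loci with reads in both libraries. An interval wholly below a 2-fold decrease was found for 42 of 53, 79.2%, against 52.3% of those lower loci, and the members had the higher median level. With 1 RPKM added to each value, which shrinks the ratios of low genes, these counts were 2 and 25 of 56. At the other end, 24 members were lowered by less than 2.5-fold. The values nearest to the authors' 2-fold limit were -1.01 for AT2G20142, -1.02 for the NLR gene RPS2 and -1.04 for RLP35. Genes just outside the limit are not in the tables used here. As a background to the choice, 3.11% of the 27594 genes in the authors' deposited ontology table were listed as lower, and 10.8% of the 637 genes under its term "defense response".

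**Figure D2:**
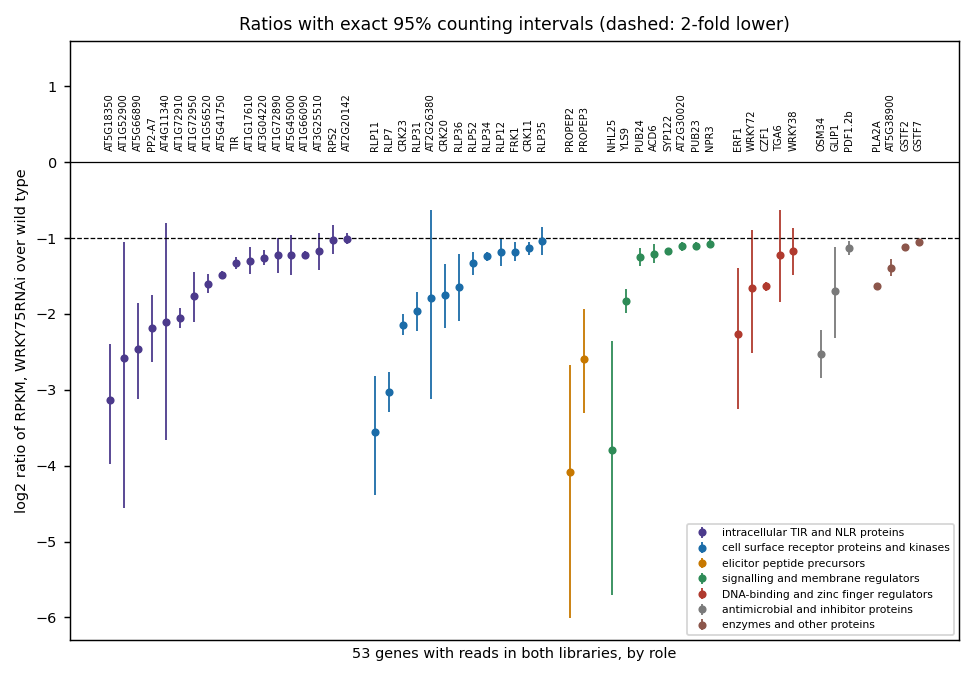
Log2 ratio of RPKM in WRKY75RNAi over wild type for the 53 genes with reads in both libraries, ordered within each role, with exact 95% counting intervals as bars and a dashed line at a 2-fold decrease. The points run from -4.09 (PROPEP2) to -1.01 (AT2G20142), and the longest bars belong to genes with few reads.

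Intracellular receptors and TIR-domain proteins formed the largest group, with 18 genes, a median log2 ratio of -1.40 and 6 genes at or below -2. TIR (AT1G72930), a short protein built of a TIR domain, was the most abundant, with 5325 reads in wild type and 1954 in WRKY75RNAi (127 and 50.8 RPKM; log2 ratio -1.33, interval -1.40 to -1.25). AT1G72910, a TIR-domain protein gene close to it on the chromosome, had 2395 and 531 reads (37.9 and 9.12 RPKM), a log2 ratio of -2.05 (-2.19 to -1.92). These transcripts are near copies of each other: they aligned over 782 bases at 96.0% identity, and 61.3% of the TIR transcript lay in exact runs of at least 36 bases shared with another gene. How the authors assigned reads that match more than 1 gene is not given, so the separate values of this pair are uncertain.

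The deepest ratio of the group belonged to AT5G18350, a gene for an NLR with a TIR domain, with 153 reads in wild type and 16 in WRKY75RNAi (0.823 and 0.0935 RPKM; -3.14, interval -3.98 to -2.39). AT5G66890, annotated as a leucine-rich repeat protein, had 155 and 26 reads (2.61 and 0.475 RPKM; -2.46). PP2-A7, which joins a TIR domain to the name of a phloem lectin family, had 262 and 53 reads (2.82 and 0.620 RPKM; -2.19). All of these lay near or below 3 RPKM in wild type. The TIR-domain gene AT1G52900, with 26 and 4 reads (0.892 and 0.149 RPKM; -2.58, interval -4.56 to -1.05), and the TIR-NLR gene AT4G11340, with 28 and 6 reads (0.138 and 0.0320 RPKM; -2.10, interval -3.67 to -0.80), rested on few reads, and the second interval included a 2-fold decrease.

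The remaining genes of the group were lowered by less than a factor of 4 and included its abundant members. AT5G41750 stood at -1.48, AT1G56520 at -1.60 and AT1G72950 at -1.77. Log2 ratios between -1.30 and -1.18 were found for AT1G17610, AT3G04220, AT1G72890, AT5G45000, AT1G66090 and AT3G25510, all annotated as TIR-type disease resistance proteins. AT2G20142, another short TIR protein, and RPS2, the NLR that guards the host protein RIN4 against a bacterial protease effector, were the least lowered at -1.01 and -1.02. RPS2 had 725 reads in wild type and 329 in WRKY75RNAi, and its interval of -1.21 to -0.83 included a 2-fold decrease.

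Across the whole genome most TIR-domain genes were not listed, and those listed were almost all lower. Of 143 genes that the annotation names as TIR-domain proteins, 21 were listed as lower (14.7%) and 1 as higher (0.699%), beside 3.10% lower and 4.18% higher among all 27444 protein-coding genes. The members account for 16 of those 21 and were lower by the choice, so the family's lower share rests largely on them. Not listed were 121 of the 143. In a list of 16 named NLR genes, among them RPM1, RPS4, SNC1 and ZAR1, RPS2 was the only one listed, as lower. In a chosen list of 11 genes for helper NLRs, the EDS1 module and NLR chaperones, which includes none of the members, 0 were listed. The 4 homologues of the RPW8 powdery mildew resistance proteins included 1 lower gene, HR2, on 34 and 4 reads (log2 ratio -2.97).

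Cell surface receptors were the second group, with 13 genes, a median log2 ratio of -1.64 and 3 genes at or below -2. The receptor-like proteins carry extracellular leucine-rich repeats but no kinase domain. RLP11 had 204 reads in wild type and 16 in WRKY75RNAi (2.10 and 0.179 RPKM; log2 ratio -3.55, interval -4.39 to -2.82), and RLP7 had 1204 and 136 reads (9.52 and 1.17 RPKM; -3.03, interval -3.29 to -2.77). RLP7 thus combined one of the deepest ratios with a small counting error, while its spread between plants is unknown. RLP31 stood at -1.96 (653 and 154 reads; 5.84 and 1.496 RPKM), and RLP34, the most abundant of the group, at -1.24 (9961 and 3874 reads; 75.6 and 32.0 RPKM). RLP36 (-1.64), RLP52 (-1.33), RLP12 (-1.19) and RLP35 (-1.04) completed the family's members, and AT2G26380, a leucine-rich repeat protein, stood at -1.79 on only 30 and 8 reads (0.503 and 0.146 RPKM; interval -3.12 to -0.63).

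RLP genes were not listed in 1 direction only. Of 52 annotated receptor-like protein genes 11 were listed as lower (21.2%), beside 3.10% of all protein-coding genes. Of those 11, 8 are members, which the choice required to be lower. Listed as higher were 4 (7.69%, beside 4.18% of all), namely RLP6 (114 and 463 reads, log2 ratio 2.14), RLP53 (1.13), RLP40 (1.04) and RLP27 (1.04). RLP34 and RLP35 have the closest tie to one of these: 53.4% of the RLP34 transcript and 33.1% of the RLP35 transcript lay in exact 36-base runs shared with other genes, among them RLP53, which differed in the opposite direction.

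Among the receptor kinases, 3 members were cysteine-rich receptor-like kinases (CRKs), a family with extracellular cysteine-rich repeats that responds to pathogens and oxidative stress. CRK23 had 2492 reads in wild type and 520 in WRKY75RNAi (19.9 and 4.52 RPKM; log2 ratio -2.14). CRK20 had 220 and 60 reads (1.95 and 0.578 RPKM; -1.75), and CRK11 stood at -1.14. CRK20 and CRK23 aligned to each other at 90.3% identity over 1248 bases, so part of their reads could be exchanged. In the family as a whole, 11 of 35 annotated CRK genes were listed as lower (31.4%), 3 of them members. Only 1, CRK27, was listed as higher, on 62 and 162 reads. Among all protein-coding genes 3.10% were listed as lower and 4.18% as higher. FRK1, a receptor kinase gene used as a marker of the response to bacterial flagellin, stood at -1.18. In a list of 12 pattern receptors and co-receptors, including EFR, BAK1, CERK1 and both PEPR receptors, 2 were listed, the wall-associated kinases WAK1 (log2 ratio -1.13) and WAK2 (-1.26), both lower.

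The elicitor peptide precursors PROPEP2 and PROPEP3 had the deepest median log2 ratio of any role group, -3.34, but the group holds only these 2 genes. With 1 RPKM added to each value their ratios were -1.37 and -1.90. Elicitor peptides are cut from such precursors in damaged cells and are perceived by the PEPR receptors. PROPEP2 had 74 reads in wild type and 4 in WRKY75RNAi (1.88 and 0.110 RPKM; log2 ratio -4.09, interval -6.00 to -2.67). PROPEP3 had 144 and 22 reads (7.18 and 1.19 RPKM; -2.59, interval -3.31 to -1.94). Both intervals lie below the members' median of -1.39. Of the 7 annotated precursor genes, PROPEP4 was listed as higher, on 2 and 27 reads. The other 4, with PROPEP1 between PROPEP2 and PROPEP3 on the chromosome, were not listed. The shares among all protein-coding genes were 3.10% lower and 4.18% higher.

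Signalling and membrane regulators numbered 8 and were, with 2 exceptions, lowered only slightly beyond 2-fold. Their median log2 ratio was -1.19. The exceptions were the members of the NDR1/HIN1-like family, membrane proteins related to the resistance signalling protein NDR1: NHL25 had 60 reads in wild type and 4 in WRKY75RNAi (1.76 and 0.127 RPKM; -3.79, interval -5.71 to -2.36), and YLS9, also known as NHL10, had 1606 and 417 (44.0 and 12.4 RPKM; -1.83, interval -1.99 to -1.67). SYP122, a plasma membrane syntaxin of vesicle fusion, was the most abundant with 22389 and 9175 reads (359 and 160.0 RPKM; -1.17, interval -1.20 to -1.13). PUB24 had 2084 and 807 reads (27.2 and 11.4 RPKM; -1.25), and PUB23 stood at -1.10. Both encode U-box ubiquitin ligases that dampen responses to microbial patterns. ACD6, an ankyrin-repeat membrane protein that promotes salicylic acid accumulation and cell death, had 1954 and 780 reads (11.4 and 4.93 RPKM; -1.21). AP2C1 (AT2G30020), a phosphatase that inactivates mitogen-activated protein kinases, had 7447 and 3184 reads (107 and 49.9 RPKM; -1.11), and NPR3, a salicylic acid receptor that represses defence genes, stood at -1.07. The group therefore held both promoters and dampeners of immunity, all lower because the choice required it.

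Wider lists around these regulators were compared with the tables, in which 3.10% of all protein-coding genes are listed as lower and 4.18% as higher. Of 8 genes of penetration resistance, including PEN1, the close relative of SYP122, 0 were listed. Of 10 cell death regulators 1 was lower, ACD6, and 1 higher, the ion channel gene CNGC4 on 178 and 328 reads. Among 15 genes for NPR1, TGA and other defence transcription regulators, NPR3 and TGA6 were lower and 0 were higher. Of 8 other antimicrobial and pathogenesis-related protein genes 0 were listed.

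DNA-binding and zinc finger regulators comprised 5 genes, with a median log2 ratio of -1.64. CZF1 (also SZF2), a zinc finger protein of salt and chitin responses, was by far the most abundant, with 10681 reads in wild type and 3163 in WRKY75RNAi (100.01 and 32.2 RPKM; -1.64, interval -1.69 to -1.58). ERF1, an ethylene response factor that activates defensin genes, had 68 and 13 reads (1.71 and 0.356 RPKM; -2.27, interval -3.25 to -1.40). The others were also low in level. WRKY72, a WRKY factor of basal defence, had 62 and 18 reads (0.546 and 0.172 RPKM; -1.66), and WRKY38, a WRKY factor that dampens basal defence, had 302 and 123 (5.87 and 2.60 RPKM; -1.18). TGA6, a bZIP factor that works with NPR1, had 86 and 34 reads (0.608 and 0.261 RPKM; -1.22). For WRKY72, WRKY38 and TGA6 the intervals reached above a 2-fold decrease, up to -0.89, -0.87 and -0.63.

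Antimicrobial and inhibitor proteins comprised 5 genes. OSM34, an osmotin-like protein of the thaumatin family, had 607 reads in wild type and 97 in WRKY75RNAi (11.4 and 1.98 RPKM; log2 ratio -2.53, interval -2.85 to -2.21). GLIP1, a secreted GDSL lipase with antifungal activity, had 113 and 32 reads (1.85 and 0.568 RPKM; -1.70). PDF1.2b, a plant defensin, was far more abundant with 3393 and 1429 reads (237 and 108 RPKM; -1.13, interval -1.22 to -1.04), although 33.5% of its transcript lay in exact runs shared with other defensin genes, which were not listed. The remaining genes were read only in wild type: UPI, a protease inhibitor of the potato inhibitor I family, had 10 reads and the cysteine-rich peptide gene LCR81 had 8, against 0 reads in WRKY75RNAi. The upper limits of their exact intervals were log2 ratios of -1.04 for UPI and -0.65 for LCR81.

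Enzymes and other proteins comprised 5 genes, among them the most abundant members, and 0 reached a log2 ratio of -2. The glutathione transferase genes GSTF2 (112414 reads in wild type and 47871 in WRKY75RNAi; 2252 and 1042 RPKM) and GSTF7 (43135 and 19087 reads; 937 and 450.4 RPKM) stood at log2 ratios of -1.11 and -1.06. Their intervals were narrow, -1.13 to -1.10 and -1.08 to -1.03, but both have close copies. Exact shared runs made up 25.7% of the GSTF2 transcript, shared with GSTF3 (lower, log2 ratio -1.48), and 36.6% of the GSTF7 transcript, shared with AT1G02930, which was not listed. PLA2A, a patatin-like lipid acyl hydrolase induced by pathogens, had 30801 and 9166 reads (366 and 118 RPKM; -1.63, interval -1.66 to -1.60), the deepest ratio among members above 100 RPKM other than CZF1. AT5G38900, a thioredoxin-superfamily protein gene, had 2503 and 879 reads (28.7 and 10.9 RPKM; -1.39). MLP34, of the major latex protein family, had 18 reads in wild type and 0 in WRKY75RNAi, and the upper limit of its exact interval was a log2 ratio of -2.02.

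The authors' deposited ontology table shows how the members divide among narrower terms. Of the 56, 28 stood under innate immune response, out of 36 lower genes there, and 31 under signaling, out of 67. Transmembrane receptor activity held 14 members of 21 lower genes, cell death 12 of 21, defense response to fungus 9 of 14 and defense response to bacterium 11 of 23. Only 4 of the 24 lower genes under response to chitin, and 6 of the 15 under response to salicylic acid stimulus, were members. These counts follow in part from the choice itself, since the members were drawn from the parent defence term and some of its loci were set aside by name.

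Promoter sequence was not used in the choice. In a window of 300 bases, from 250 before to 50 after the annotated start, searched on both strands, the W-box core TTGAC occurred at least once in 45 of the 56 members, 80.4%. The share was 64.8% for all 850 lower protein-coding loci, 46.2% for the 1148 higher loci and 50.5% for all 27443 promoters. With at least 2 cores the shares were 53.6% of members (30 genes), 35.2% of lower loci, 14.8% of higher loci and 17.7% of all promoters. With at least 3 they were 21.4% (12 genes), 12.4%, 3.40% and 4.86%. Base composition was nearly alike, with a median GC content of 31.3% in members, lower and higher loci and 32.0% in all promoters. The members are a subset of the lower loci, some are duplicated neighbours, and no test was made of these shares.

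**Figure D3:**
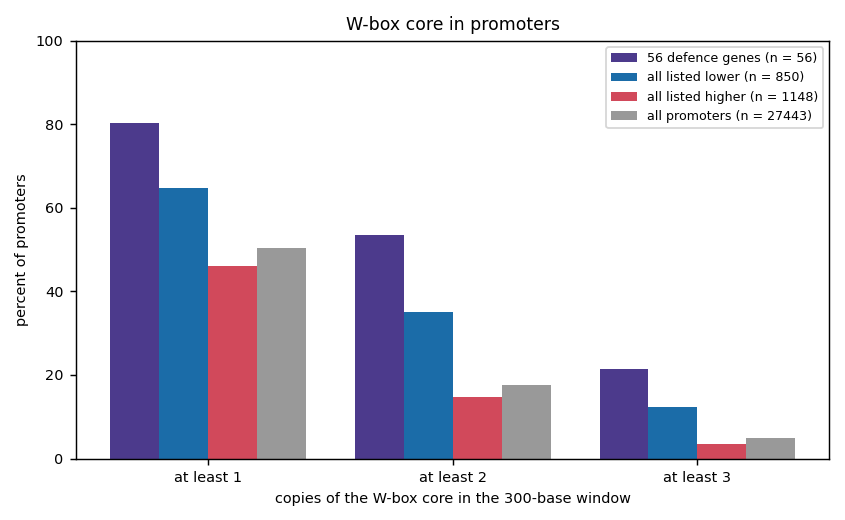
Percent of promoters with at least 1, 2 or 3 copies of the W-box core in the 300-base window, for the 56 genes, all lower loci, all higher loci and all promoters of the annotation. The 56 genes stand highest in each class, at 80.4%, 53.6% and 21.4%, and the higher loci lowest, at 46.2%, 14.8% and 3.40%.

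The cores were spread unevenly over the roles. All 13 cell surface receptor promoters held at least 1 core and 11 held at least 2, whereas 12 of the 18 promoters of intracellular receptors and TIR proteins held at least 1. CRK11 had the most, with 7 cores, 6 of them before the start, mostly packed close to it, as its printed sequence shows. AT2G26380 had 5, and SYP122, PUB23 and PROPEP3 had 4 each. No core lay in the window of 11 members: AT1G17610, AT1G56520, AT1G72890, AT3G25510, AT5G18350 and PP2-A7 among the intracellular proteins, and ACD6, PDF1.2b, LCR81, GSTF2 and MLP34 among the others. Genes with deep ratios stood on both sides, as PROPEP2 held 3 cores and AT5G18350 held 0.

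**Figure D4:**
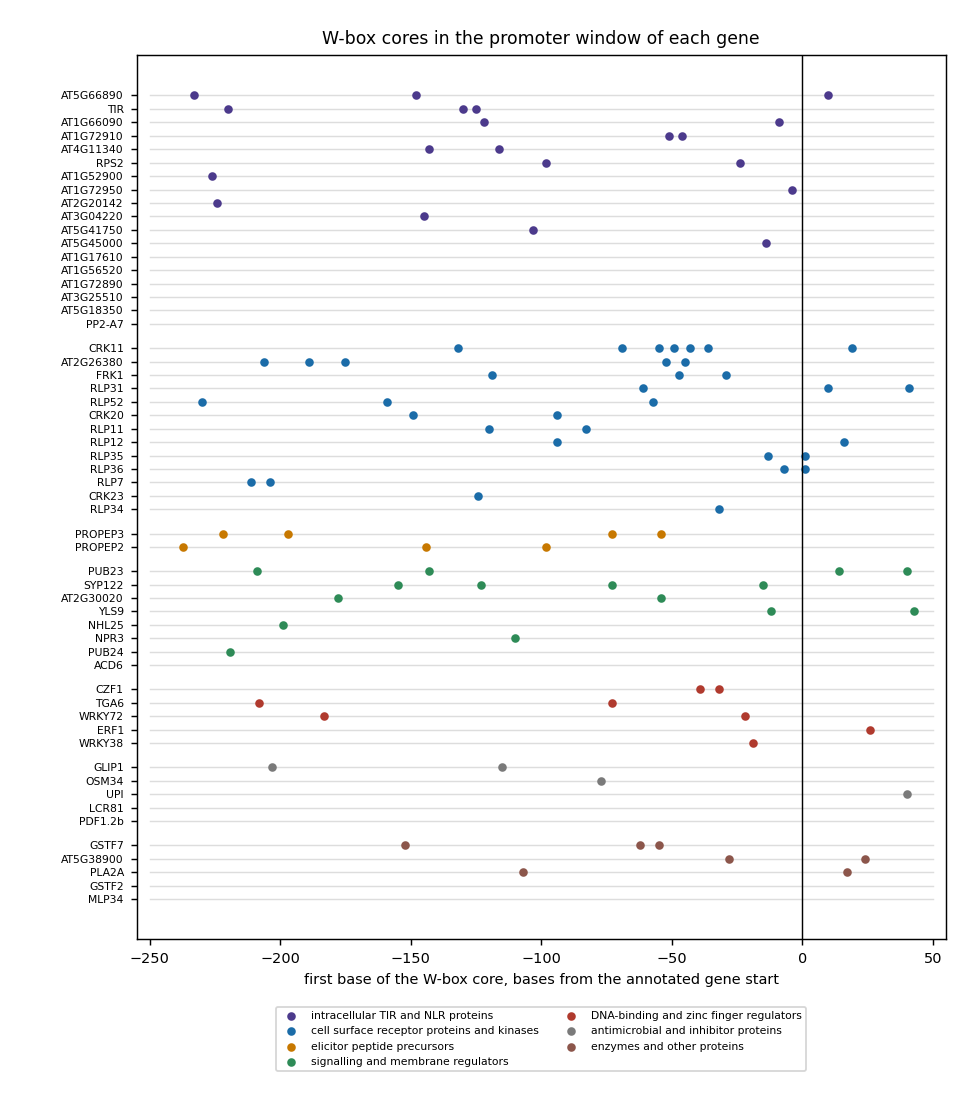
Position of each W-box core, in bases from the annotated gene start, in the window of each of the 56 genes; 1 point is 1 core on either strand and colours give the role. CRK11 shows 7 cores, most of them just before the start, and 11 genes show 0.

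Other promoter elements were also counted. The TGA motif TGACG, which overlaps the W-box core where the letters read TTGACG, was found in 17 members, 30.4%, against 24.5% of lower loci and 23.1% of all promoters. The GCC box GCCGCC was found in 6 members (TIR, YLS9, AT1G72950, PUB24, OSM34 and PDF1.2b), 10.7%, against 3.88% of lower loci and 2.57% of all promoters. PDF1.2b, printed above with its GCC box in capitals, is the only one of the 6 without a W-box core.

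Some members lie near each other on the chromosomes. Within 10 protein-coding genes of another member lay 18 of the 56, in 7 stretches, a count for which no background share was computed. To another lower locus, 38 members (67.9%) lay that close, against 55.9% of all 850 lower protein-coding loci. Within 3 genes these shares were 48.2% and 33.8%. The stretch with the most lower genes ran over 7 genes on chromosome 1 from AT1G72890 to AT1G72950, with 5 genes listed as lower, all for TIR-domain proteins, of which 4 are members; their log2 ratios were -1.22 (AT1G72890), -2.05 (AT1G72910), -1.08 (AT1G72920, no member), -1.33 (TIR) and -1.77 (AT1G72950). In the CRK stretch on chromosome 4, 4 of 14 genes were lower: CRK11, its direct neighbour CRK12 (-1.18), CRK20 and CRK23. RLP11 and RLP12 are direct neighbours yet differed in depth, at -3.55 and -1.19, and their intervals did not overlap. In none of the 7 stretches was any gene listed as higher, beside 4.18% of all protein-coding genes. Stretches this short hold few genes, and the members in them were lower by the choice.

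**Figure D5:**
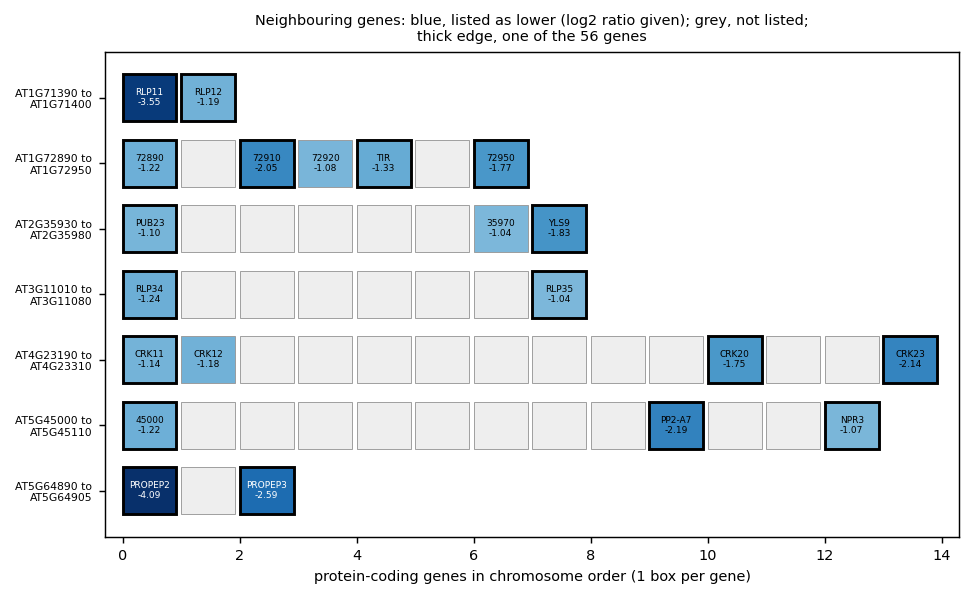
The 7 stretches in which members lie within 10 genes of each other, 1 box per protein-coding gene in chromosome order, blue where listed as lower (darker for a deeper log2 ratio, printed in the box), grey where not listed; a thick edge marks the 56 genes, and plain numbers are locus numbers. The stretch from AT1G72890 to AT1G72950 has 5 blue boxes among 7 genes, and the pair RLP11 and RLP12 has ratios of -3.55 and -1.19.

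Near-identical copies and overlapping genes limit single values. Exact runs of at least 36 bases shared with another gene's transcript were absent in 32 members and made up over 10% of the transcript in 13. The 30 members without such runs and with reads in both libraries had a median log2 ratio of -1.65, and the 23 with them -1.33. A gene on the opposite strand overlapped 14 members, among them RPS2, GSTF2, RLP34, FRK1, CRK11 and PUB23, and no background share was computed. Whether reads were counted by strand is not given, so reads of such pairs cannot be told apart. The overlapped members had a median log2 ratio of -1.23, and the 39 others with reads in both libraries -1.64. The cause of this difference was not tested.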

How the data were processed

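The submitters' processing notes name Bowtie and TAIR10. Aligner version, read counter, strand setting and treatment of reads that match several places were not stated there. Per the file headers, the deposited tables hold for each transcript model the read count and RPKM of both libraries, their log2 ratio, and p-values, in 1 table of 998 lower and 1 of 1360 higher models, with a table of ontology terms, their gene lists and p-values for the lower genes. Only models past a 2-fold difference are in them.

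Per locus the model with most reads was used. Library totals were recovered as reads divided by RPKM and length. Ratios were computed from reads scaled to these totals, and intervals are Clopper-Pearson (SciPy 1.17.1). Log2 ratios recomputed from the deposited RPKM values match the deposited log2 ratios within 7.29e-08. The deposited p-values were not used. Deposited lengths include introns, so RPKM of intron-rich genes is low relative to others; over the spliced lengths of the RefSeq models the members' RPKM is a median of 1.04 times as high, between 0.570 and 3.31 times (AT4G11340). Promoters, gene order and transcripts come from the RefSeq annotation of TAIR10.1, matched by locus for all 56 genes; the deposited tables hold no coordinates. Shared sequence was counted as exact runs of 36 bases, and alignments of at least 300 bases used BLAST 2.17.0. The interval code was tested on simulated data.

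Every member is named in its role group. Reads and RPKM are given for up to 6 genes per role with the largest absolute log2 ratio among those with at least 20 wild-type reads, plus the most abundant one, and otherwise where a statement on sequence or position turns on them. Of other genes, up to 4 per list or family with the largest ratios are named. The members, role groups, gene lists and families were chosen with earlier results of these data known. Tables were handled with Python 3.11.15 and pandas 2.3.3. Alternative pseudocounts, read minimums, model sums, scalings and motif definitions were computed.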

Additional observations from a re-analysis of the deposited data

How the results depend on the processing

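With 1 RPKM added to each value the median log2 ratio of the members was -1.10 instead of -1.39, and with 0.1 RPKM it was -1.32, a scale that shrinks the ratios of low genes. With 1 RPKM added, 2 members instead of 14 lay at a log2 ratio of -2 or below and 25 instead of 42 had an interval below a 2-fold decrease; 29 of 53 members left their own interval, 15 were above a 2-fold decrease, and 0 turned to the opposite direction, the highest being AT4G11340 at -0.14. By wild-type level, the medians under 3, from 3 to 30 and from 30 RPKM were -1.79, -1.27 and -1.17 with 0.1 RPKM added (chosen after seeing the data). Members with no exact shared run of 36 bases, an alternative chosen after seeing the data, had a median of -1.65; the cause was not tested. Leaving out members under 20 reads removed none of the 53 with reads in both libraries, so it could change nothing. Summing listed models and scaling to the reads of all listed loci gave medians of -1.39 and -1.52, and kept both counts within 1.5 times. The W-box core was found in 45 of 56 promoters; TTGACC or TTGACT was found in 35, the 250 bases before the start held a core in 42, and the share was 76.3% of the 38 members with no other member within 10 genes and 87.5% of the 32 with no shared run (both chosen after seeing the data). Up to 3 genes apart, 12 instead of 18 members had another member nearby. No paired analysis was possible because each genotype has 1 library. Depth limits the 11 members under 100 wild-type reads most, 3 of which had 0 reads in WRKY75RNAi.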
